A study of Mus musculus with 35 samples.

Results

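The genes described here are 26 genes of GABA signalling in the mouse hippocampus, chosen by name from the table of counts per gene of an mRNA-seq study, which lists 43629 Ensembl identifiers. They comprise 9 subunits of the GABA-A receptor, 2 subunits of the GABA-B receptor, 6 genes of GABA synthesis, vesicle loading, uptake and breakdown, 2 chloride transporters, 1 scaffold gene of the inhibitory synapse and 6 genes that mark interneurons or their development. C57BL/6J mice of both sexes, 6 to 7 weeks old, were given pilocarpine (first dose 350 mg/kg), a muscarinic agonist that causes status epilepticus (SE), a state of prolonged seizures, and the left hippocampus was taken 1 h (n = 3), 8 h (n = 2), 36 h (n = 3) or 120 h (n = 3) after seizure onset. Control mice received saline in place of pilocarpine, with 2 controls at 1 h, 3 at 8 h and 3 shared by 36 h and 120 h. By the study's methods all mice, controls included, had first received scopolamine, which limits the effects of pilocarpine outside the brain, and pilocarpine was repeated in smaller doses until seizures reached a set stage, so that the total dose could differ between mice.

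GABA is the main inhibitory transmitter of the adult brain. It is made from glutamate in interneurons, loaded into vesicles and released onto GABA-A receptors, which are chloride channels of mixed subunits, and onto GABA-B receptors, which act through G proteins. The direction of the chloride current depends on transporters that bring chloride into the cell or take it out. Transporters of GABA on neurons and astrocytes end the signal. Loss of inhibition is a long-studied feature of SE models.

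The 19 libraries held 8503816 to 28465548 counts, and all 26 genes had counts in each of them and passed the filter on low counts in every comparison. Markers of hippocampal neurons were present throughout, with summed levels of 940 to 1607 CPM (TMM-normalized counts scaled to the library size) for 8 genes of CA pyramidal cells and 411 to 845 CPM for 8 genes of dentate granule cells. The summed level of 20 genes of choroid plexus epithelium, a tissue next to the hippocampus, ranged from 214 to 9511 CPM. It was 4668 to 9511 CPM in the libraries of 1 h, 7739 to 9383 CPM in SE replicates 1 and 2 at 36 h and SE replicate 3 at 120 h, and 214 to 382 CPM in the other SE libraries of 36 h and 120 h and in their 3 controls. The 1-h libraries come from 2 batches as labelled. At 8 h control replicate 1 belongs to 1 of these 1-h batches, which is another batch than that of the other 4 libraries. The 9 libraries of the later times share 1 batch. In 2 control libraries of mice listed as male the counts went against the listed sex: replicate 2 at 1 h and replicate 3 of 36 h to 120 h held 22835 and 13899 counts of Xist, the RNA of the inactive X chromosome, and 1 count each of the Y-linked Ddx3y. All SE libraries of 36 h held 0 counts of Xist, while control replicate 2 of 36 h to 120 h, listed as female, held 8980. By these counts SE went partly with sex at 36 h, and the 2 cannot be fully told apart there. The same holds at 120 h, where the SE libraries held 1, 2 and 10632 counts of Xist. At 1 h, SE replicates 1 and 2, of the batch of control replicate 2, held 9 and 5. SE replicate 3 held 14407, and control replicate 1 of its batch held 11. Within each 1-h batch SE therefore cannot be told apart from sex. In bulk tissue, fewer cells of a type and less RNA per cell cannot be told apart.

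In the 8 control hippocampi the GABA-B receptor genes stood at the top of the 26 genes and the receptor subunits of restricted cell types near the bottom. Levels between genes were compared as CPM per kilobase of exon. Gabbr1, whose product binds GABA, had a median of 104 (range 85.4 to 125) and Gabbr2, whose product couples the receptor to its G protein, had 76.1 (46.4 to 91.2). Gabra5, the GABA-A subunit of extrasynaptic receptors on pyramidal cells, had 75.2 (72.5 to 106), and its range overlapped that of Gabbr2. Slc12a5 encodes KCC2, the neuronal chloride exporter, and had 63.1 (47.8 to 73.5), against 14.8 (9.93 to 28.9) for Slc12a2, which encodes the chloride importer NKCC1, so that the ranges of these transporters did not overlap.

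The enzymes that make GABA, Gad1 (median 40.0, range 31.1 to 45.3) and Gad2 (27.2, 23.7 to 37.9), overlapped in CPM per kilobase, as did Gad1 with the astrocytic GABA transporter Slc6a11 (38.1, 31.4 to 45.7) and with Abat, the enzyme that breaks GABA down (36.2, 29.7 to 39.0). The vesicular transporter Slc32a1 had a median of 20.2 (11.8 to 26.8). Gabrg3 (2.91, 1.44 to 3.86), Gabrg1 (2.90, 2.42 to 5.28) and Slc6a13, a GABA transporter of meninges and other non-neuronal cells (2.42, 1.26 to 4.61), were the lowest, and their ranges overlapped. The highest control exceeded the lowest by 4.13 times at Gabrb1, the largest ratio of the 26 genes, and by 1.32 times at Abat, the smallest.

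**Figure D1:**
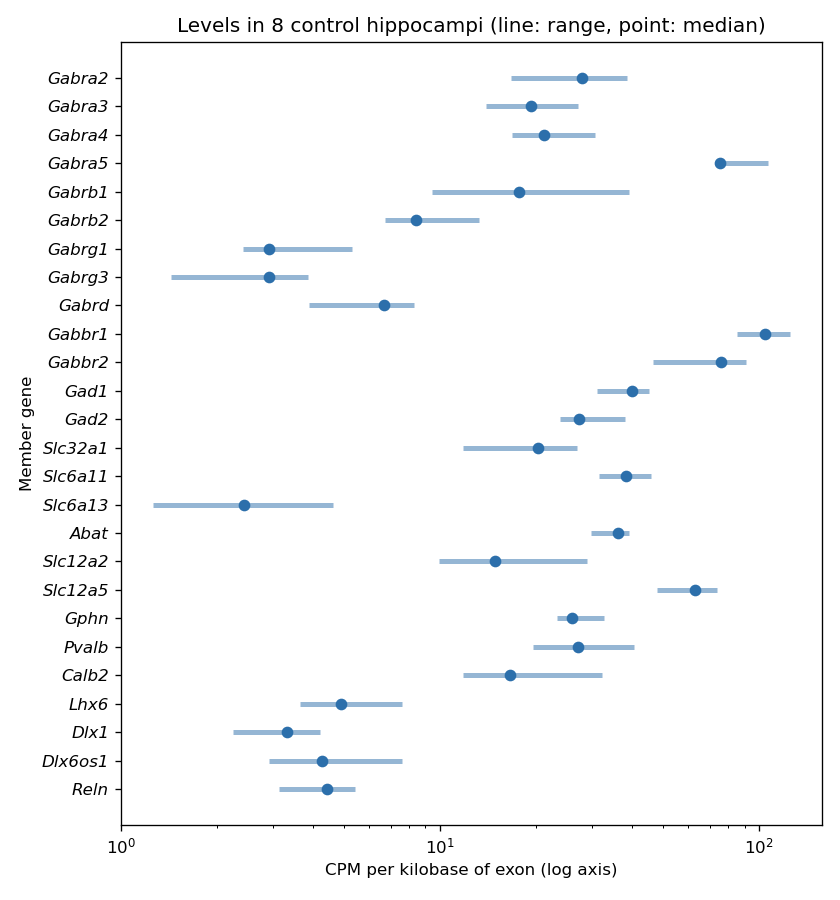
Levels of the 26 genes in the 8 control libraries, as CPM per kilobase of exon on a log axis, where the line spans the lowest to the highest control and the point is the median. Gabbr1 has the highest median (104) and Slc6a13 the lowest (2.42).

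Part of the spread between controls went with batch. Gabrb1, a beta subunit of the GABA-A receptor, had 109 to 121 CPM in the 3 libraries of the first of the 1-h batches, 53.8 to 66.2 CPM in the 3 of the second, 46.0 to 59.9 CPM in the 4 libraries of the 8-h batch and 22.1 to 40.0 CPM in the 9 libraries of 36 h and 120 h, with SE and control libraries in each. Control replicate 1 of 8 h is among the 3 libraries of the second 1-h batch, with 66.2 CPM. Apart from this library, differences in level between the 1-h, the 8-h and the later libraries cannot be told apart from batch. Each SE group is set below against the controls of its own time.

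The GABA-A subunit genes Gabrg1, Gabra2, Gabra4 and Gabrb1 lie in a cluster on chromosome 5. In NCBIM37, the assembly of the files, Gabrg1 spans 71142286 to 71233856 on the minus strand, Gabra2 71352296 to 71487088 on the minus strand, Gabra4 71960973 to 72049547 on the minus strand and Gabrb1 72091171 to 72529628 on the plus strand. Gabra2 and Gabra4 encode alpha subunits and had fold changes of opposite sign at 120 h, so the 300 bases around the start of each gene are shown here from RefSeq (GRCm38.p6, chr5:71095800-71096099 and chr5:71658259-71658558, both on the minus strand, 5′ to 3′). Capitals mark the GC box GGGCGG, searched on both strands.

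Gabra2: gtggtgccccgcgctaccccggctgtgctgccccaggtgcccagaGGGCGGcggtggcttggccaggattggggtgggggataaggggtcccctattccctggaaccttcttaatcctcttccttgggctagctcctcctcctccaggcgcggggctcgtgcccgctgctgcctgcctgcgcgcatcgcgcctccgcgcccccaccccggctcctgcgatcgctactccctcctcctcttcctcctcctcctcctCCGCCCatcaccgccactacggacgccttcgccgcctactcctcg
Gabra4: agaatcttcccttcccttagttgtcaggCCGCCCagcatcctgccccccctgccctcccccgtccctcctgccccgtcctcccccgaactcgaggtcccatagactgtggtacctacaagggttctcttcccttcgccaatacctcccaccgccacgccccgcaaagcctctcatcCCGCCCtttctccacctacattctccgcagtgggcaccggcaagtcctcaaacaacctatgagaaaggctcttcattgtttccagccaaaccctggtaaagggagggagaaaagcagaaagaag

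Each of these promoters held 2 GC boxes, and their GC content was 70.0% at Gabra2 and 58.7% at Gabra4. The GC box was found in 14 of the 22 members with a promoter in this table, and in 35.7% of all 32851 promoters of the same length. The cyclic AMP response element TGACGTCA was found in 0 of the 22 and in 1.79% of all promoters, and the Egr site GCGTGGGCG in 0 of the 22 and in 0.612% of all. A match is a description of the letters in this window.

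At 1 h after SE the GABA genes were close to their controls. Of 26 genes, 14 were above and 12 below control, with a median log2 fold change of 0.00 (all 16264 genes tested, -0.00), and the values ran from -0.34 to 0.33. EdgeR's quasi-likelihood test called 0 of the 26 at an adjusted p under 0.05, where 0.0799% of all genes were called, and 0 had an unadjusted p under 0.05 (4.39% of all genes). The likelihood ratio test (0.424% of all genes called) and DESeq2 (0.42%) called 0 of the 26 as well. The groups did not overlap at 3 of the 26 genes, and at 18.7% of all genes.

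The chloride importer Slc12a2 was the member with the smallest p at 1 h. It had 190, 189 and 225 CPM after SE and 189 and 141 CPM in controls. All SE libraries were above both controls, although the lowest SE library exceeded the highest control by less than 1 CPM, and the log2 fold change was 0.29 ± 0.15 (standard error, unadjusted p = 0.0797 and adjusted p = 0.999 by edgeR's quasi-likelihood test). Within the batches the log2 difference was 0.42 and 0.25. With batch in the model the log2 fold change was 0.36 ± 0.09 (unadjusted p = 0.00364, adjusted p = 0.572 by edgeR). In that fit 2 of the 26 genes, Slc12a2 and Gabra5, had an unadjusted p under 0.05 and 0 were called (0.0799% of all genes called). The 2 controls belong to different batches, so a fit without either of them lacks a control of 1 batch. Summed choroid plexus levels were 6297 to 9511 CPM in the SE libraries and 4668 and 5776 CPM in the controls. When that score entered the model the log2 fold change of Slc12a2 was 0.17 ± 0.22 (adjusted p = 1.0 by edgeR), and without control replicate 1 or 2 it was 0.52 or 0.091.

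The enzyme gene Gad2 had 254, 221 and 234 CPM after SE and 208 and 216 CPM in controls, which did not overlap, with a log2 fold change of 0.16 ± 0.10 (adjusted p = 0.999 by edgeR). Dlx6os1, a noncoding RNA of the Dlx5 and Dlx6 locus of forebrain interneurons, had 25.3, 23.3 and 29.7 CPM after SE and 36.9 and 29.4 CPM in controls. The groups overlapped and the log2 fold change was -0.34 ± 0.17 (unadjusted p = 0.0807, adjusted p = 0.999 by edgeR), or -0.17 without control replicate 1. Dlx6os1 lies antisense to Dlx6, and the strand setting of the counting was not given in the sources used here, so its value may include reads of the other strand. The log2 fold changes of Gabra5 (-0.20 ± 0.18), Gabbr2 (0.04 ± 0.12) and Gphn, the scaffold gephyrin that holds GABA-A receptors at the synapse (-0.02 ± 0.12), each had an adjusted p of 0.999 by edgeR, and each of them changed sign when 1 library was left out. Gabra5 was positive (0.089) without control replicate 2, the only control of its batch. Within the batches its log2 difference was -0.34 and -0.18. With batch in the model the log2 fold change of Gabra5 was -0.26 ± 0.09 (unadjusted p = 0.0218, adjusted p = 0.946 by edgeR).

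**Figure D2:**
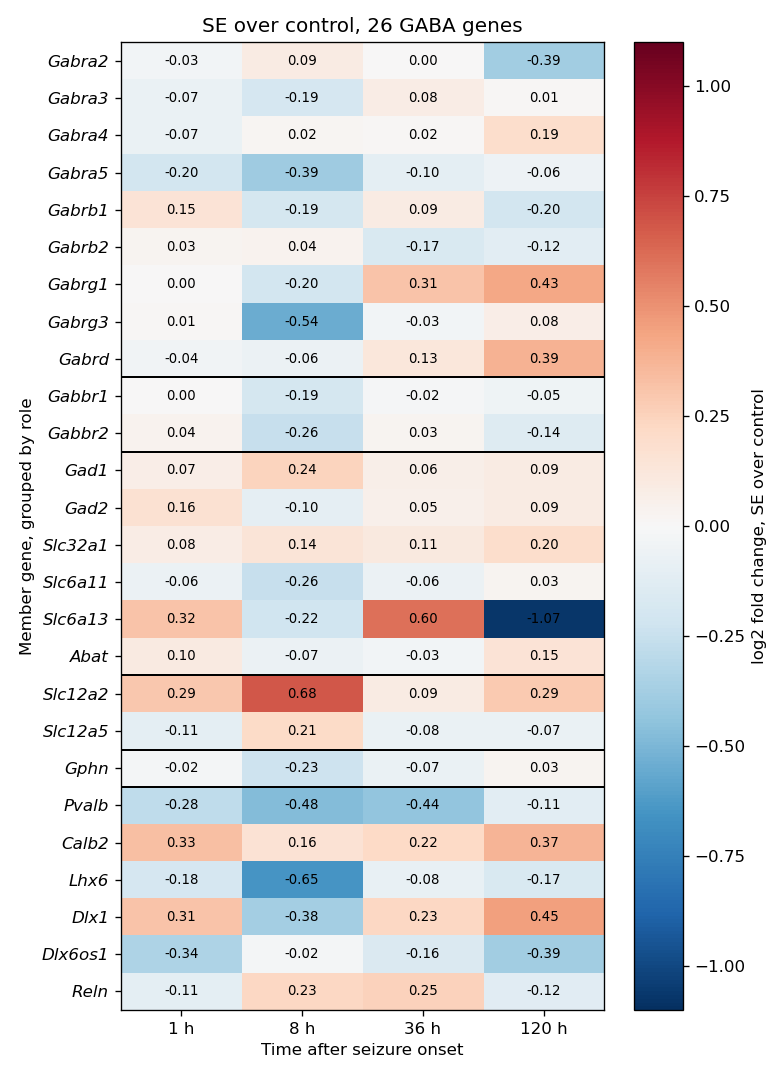
Log2 fold changes of SE over control for the 26 genes (rows, with lines between the 6 roles) at the 4 times (columns, in hours), from edgeR on the libraries of each time. Values run from -1.07 for Slc6a13 at 120 h to 0.68 for Slc12a2 at 8 h, and none of them passed an adjusted p of 0.05 by the quasi-likelihood test.

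At 8 h more of the 26 genes lay below control than above it. Of the 26, 9 were above and 17 below, with a median log2 fold change of -0.14 (all 15610 genes, -0.01). Both GABA-B subunit genes, 6 of 9 GABA-A subunit genes and 4 of 6 interneuron genes were below control, and both chloride transporters were above. EdgeR's quasi-likelihood test called 0 of the 26 genes (0.0% of all genes) and 4 had an unadjusted p under 0.05 (9.47% of all genes), while the likelihood ratio test (0.57% of all genes called) and DESeq2 (0.728%) called 0 of the 26. The groups did not overlap at 10 of the 26 genes (27.7% of all genes).

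Lhx6, a transcription factor of interneurons born in the medial ganglionic eminence, had 17.9 and 19.8 CPM after SE and 22.8, 30.5 and 35.9 CPM in controls. Both SE libraries were below all controls, and the lowest control was the one of the other batch. The log2 fold change was -0.65 ± 0.23 (unadjusted p = 0.0209, adjusted p = 0.495 by edgeR). Pvalb, the calcium-binding protein of fast-spiking interneurons, had 21.3 and 20.2 CPM after SE and 27.7, 33.5 and 25.98 CPM in controls, again without overlap, with a log2 fold change of -0.48 ± 0.19 (unadjusted p = 0.0353, adjusted p = 0.505 by edgeR).

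Among the receptor genes, Gabra5 had 147 and 160 CPM after SE and 199, 193 and 216 CPM in controls. The groups did not overlap, and the log2 fold change was -0.39 ± 0.15 (unadjusted p = 0.0288, adjusted p = 0.501 by edgeR). Gabrg3, a gamma subunit gene next to Gabra5 on chromosome 7, had 19.8 and 29.3 CPM after SE and 38.9, 33.5 and 36.1 CPM in controls, with a log2 fold change of -0.54 ± 0.21 (unadjusted p = 0.0309, adjusted p = 0.503 by edgeR). The SE libraries of Gabrg3 differed from each other by more than the controls did, and its log2 fold change was -0.30 without SE replicate 1 and -0.86 without SE replicate 2. Gabbr2 had a log2 fold change of -0.26 ± 0.16, Gphn -0.23 ± 0.16 and the astrocytic transporter Slc6a11 -0.26 ± 0.16, at adjusted p values of 0.618, 0.646 and 0.616 by edgeR, and none of these groups overlapped.

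Slc12a2 had 136 and 200 CPM after SE at 8 h and 145, 104 and 64.8 CPM in controls, where the highest control was the one of the other batch. The groups overlapped, and the log2 fold change was 0.68 ± 0.31 (unadjusted p = 0.0524, adjusted p = 0.527 by edgeR). Choroid plexus genes summed to 5113 and 5186 CPM in the SE libraries and to 1076, 6112 and 1891 CPM in controls 1, 2 and 3, and when that score entered the model the log2 fold change of Slc12a2 was 0.80 (adjusted p = 0.651). It was 0.38 without SE replicate 2 and 0.43 without control replicate 3.

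The 8-h calls depended on control replicate 1, the library of another batch. Without it, which leaves 2 SE and 2 control libraries of 1 batch, 4 of the 26 genes were called and 14 had an unadjusted p under 0.05. In that fit 13.4% of all genes were called and 28.3% had an unadjusted p under 0.05. Slc12a2 rose by a log2 fold change of 1.00 ± 0.21 (adjusted p = 0.0112 by edgeR), Gad1 rose by 0.40 ± 0.11 (adjusted p = 0.0327), Lhx6 fell by 0.81 ± 0.18 on the log2 scale (adjusted p = 0.0143) and Gabra5 fell by 0.41 ± 0.11 (adjusted p = 0.0364). Gad1 had 315 and 320 CPM after SE, against 238 and 242 CPM in the controls of the same batch and 329 CPM in control replicate 1. Gad1 was not named by the rule for the full comparison and was added after its value was seen. A fit with batch as a covariate compares the same 4 libraries, since control replicate 1 is the only one of its batch, and it is no separate support for these calls (13.5% of all genes called).

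**Figure D3:**
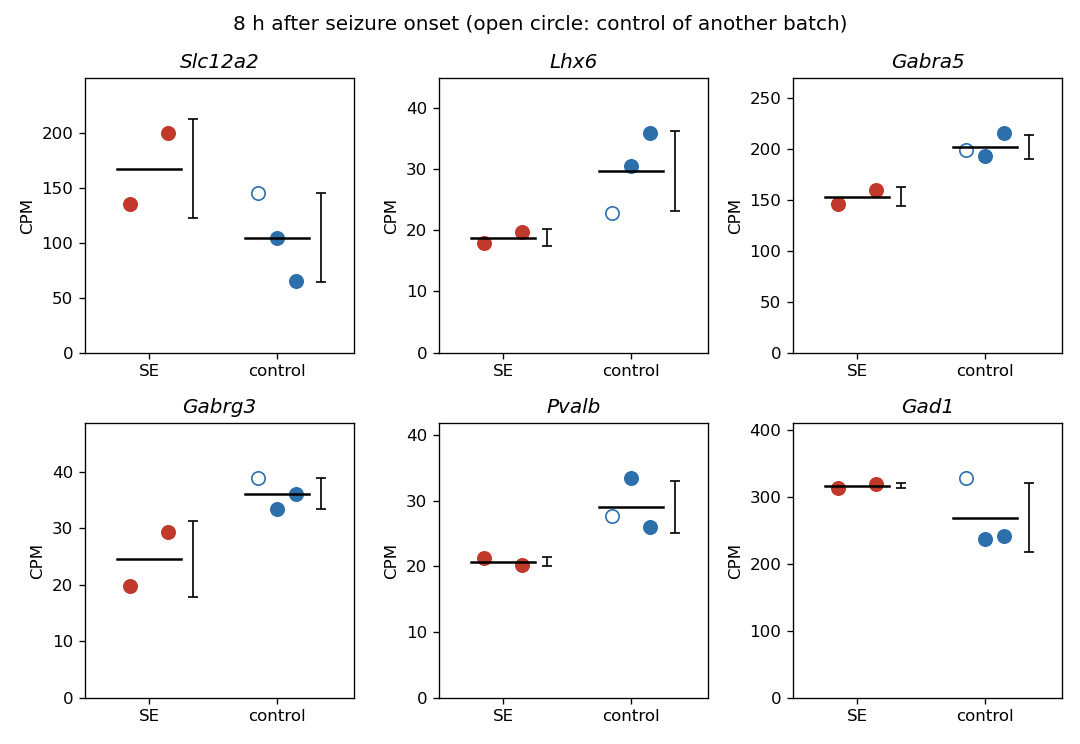
Levels (CPM) of 6 genes 8 h after seizure onset, 1 point per library, SE on the left and control on the right, with the mean (line) and the SD (bar), and control replicate 1 of the other batch as an open circle. For Gad1 this control (329 CPM) lies above both SE libraries (315 and 320 CPM), while the other controls lie below them (238 and 242 CPM).

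At 36 h the 26 genes were again centred on their controls. Of them, 15 were above and 11 below, with a median log2 fold change of 0.02 (all 15850 genes, 0.01). EdgeR's quasi-likelihood test called 0 of the 26 (0.0252% of all genes) and 1 had an unadjusted p under 0.05 (7.89% of all genes), and the likelihood ratio test (0.789% of all genes called) and DESeq2 (0.67%) called 0. The groups did not overlap at 2 of the 26 genes, Gabra5 and Gphn (14.1% of all genes).

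Pvalb had 28.6, 18.7 and 25.8 CPM after SE at 36 h and 29.6, 28.5 and 42.2 CPM in controls. The groups overlapped by the highest SE library alone, and the log2 fold change was -0.44 ± 0.19 (unadjusted p = 0.0445, adjusted p = 0.621 by edgeR), or -0.23 without control replicate 3 and -0.29 without SE replicate 2. Gphn had 82.3, 82.4 and 80.2 CPM after SE and 88.3, 84.8 and 87.5 CPM in controls, a log2 fold change of -0.07 ± 0.06 (adjusted p = 0.833 by edgeR). Gabrg1, a gamma subunit found in glia and in few neurons, had a log2 fold change of 0.31 ± 0.19, Slc12a5 -0.08 ± 0.12 and Gabbr2 0.03 ± 0.12, at adjusted p values of 0.731, 0.909 and 0.966 by edgeR. None of these signs held under every alternative: with the score of choroid plexus genes in the model Gabrg1 stood at -0.0013 and Slc12a5 at 0.14, and Gabbr2 ran from -0.093 to 0.15 when each library was left out.

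Some members differed at 36 h between the SE libraries with many and with few choroid plexus counts. Slc12a2 had 97.8 and 92.3 CPM in SE replicates 1 and 2, where choroid plexus genes summed to 9383 and 7739 CPM, and 47.2 CPM in SE replicate 3, where they summed to 214 CPM. Its controls had 64.9, 72.1 and 88.8 CPM. Gabra3, an alpha subunit gene on the X chromosome, had 41.3 and 55.6 CPM in SE replicates 1 and 2 and 90.2 CPM in SE replicate 3, against 54.6, 70.2 and 54.6 CPM in controls, and Reln, a secreted protein of Cajal-Retzius cells and interneurons, had 62.0 and 69.0 and then 109 CPM, against 64.5, 78.1 and 61.9 CPM. The part of the dissection in these values was not tested. Without SE replicate 3, Gabrb2, a beta subunit gene, was called with a log2 fold change of -0.36 (adjusted p = 0.0369 by edgeR, 2.9% of all genes called), against -0.17 ± 0.13 (adjusted p = 0.809) with all libraries. SE replicate 3 is the SE library of few choroid plexus counts, and the sign of Gabrb2 turned to 0.11 with that score in the model and to 0.13 with SE replicate 3 as the only SE library, a setting chosen after seeing the data. Gabrb2 had 53.0, 55.1 and 77.0 CPM after SE and 66.5, 74.1 and 70.1 CPM in controls, and it was added after its value was seen.

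At 120 h the GABA-A subunit genes with the smallest p differed in direction. Of the 26 genes, 14 were above and 12 below control, with a median log2 fold change of 0.02 (all 15996 genes, 0.01), and 7 had an unadjusted p under 0.05 (9.6% of all genes), 4 of them GABA-A subunits. EdgeR's quasi-likelihood test called 0 of the 26 (0.0563% of all genes). The likelihood ratio test called 1, where it called 0.475% of all genes, and DESeq2 called 1, where it called 0.76%, and in both it was Gabra2. The groups did not overlap at 7 of the 26 genes (15.5% of all genes).

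Gabra2, the alpha subunit of synaptic receptors on the axon initial segment of pyramidal cells among other sites, had 55.0, 45.0 and 53.8 CPM after SE and 69.1, 67.05 and 65.1 CPM in controls. All SE libraries were below all controls, and the log2 fold change was -0.39 ± 0.08 (unadjusted p = 0.00113, adjusted p = 0.233 by edgeR's quasi-likelihood test, 0.0276 by its likelihood ratio test and 0.0177 by DESeq2). Its log2 fold change ran from -0.43 to -0.30 when each library was left out in turn, and with the score of choroid plexus genes in the model it was -0.42 (adjusted p = 0.268).

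The neighbouring Gabra4, an alpha subunit of dentate granule cells and other forebrain neurons, had 94.6, 92.7 and 96.6 CPM after SE and 83.7, 74.1 and 90.9 CPM in controls. All SE libraries were above all controls, with a log2 fold change of 0.19 ± 0.07 (unadjusted p = 0.0296, adjusted p = 0.466 by edgeR), or 0.12 without control replicate 2. Gabrd, the delta subunit that joins Gabra4 in extrasynaptic receptors of granule cells, had 25.1, 27.99 and 25.2 CPM after SE and 21.5, 14.6 and 23.8 CPM in controls, likewise without overlap. Its log2 fold change was 0.39 ± 0.16 (unadjusted p = 0.0409, adjusted p = 0.492 by edgeR), or 0.21 without control replicate 2, the lowest control. Summed dentate granule cell markers were 612, 520 and 601 CPM after SE and 485, 433 and 518 CPM in controls, and their part in these values was not tested.

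Gabrg1 had 16.3, 21.7 and 12.6 CPM after SE at 120 h and 11.5, 12.3 and 14.1 CPM in controls. The groups overlapped, SE replicate 2 was the highest, and the log2 fold change was 0.43 ± 0.19 (unadjusted p = 0.0473, adjusted p = 0.512 by edgeR), or 0.20 without SE replicate 2. Abat had 267, 271 and 270 CPM after SE and 230, 252 and 249 CPM in controls, without overlap, and a log2 fold change of 0.15 ± 0.06 (unadjusted p = 0.0253, adjusted p = 0.462 by edgeR). Dlx6os1 had 15.1, 15.8 and 14.8 CPM after SE and 18.4, 19.8 and 21.9 CPM in controls, without overlap, and a log2 fold change of -0.39 ± 0.10 (unadjusted p = 0.00351, adjusted p = 0.324 by edgeR). The log2 fold changes of Slc12a2 (0.29 ± 0.16), Gabbr2 (-0.14 ± 0.08) and Gphn (0.03 ± 0.05) had adjusted p values of 0.607, 0.618 and 0.88 by edgeR.

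**Figure D4:**
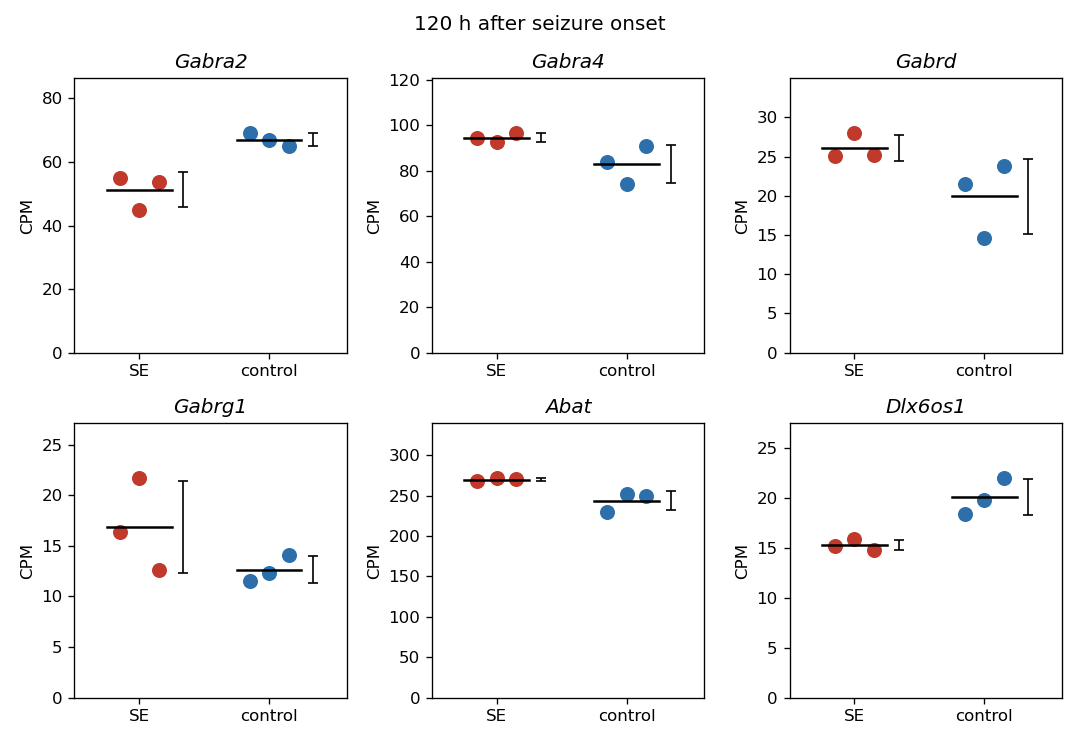
Levels (CPM) of 6 genes 120 h after seizure onset, 1 point per library, SE on the left and control on the right, with the mean (line) and the SD (bar). The SE libraries lie below all controls for Gabra2 and Dlx6os1 and above all controls for Gabra4, Gabrd and Abat, while Gabrg1 overlaps.

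SE replicate 2 at 120 h stood apart in some genes of GABA neurons, but not in all in the same direction. Lhx6 (15.15 CPM) and Reln (57.97 CPM) were lower in it than in any other library of 36 h or 120 h. A list of 24 other interneuron genes summed to 1128 CPM in it, the lowest of the 19 libraries. Within that list Cnr1 (140 CPM), Kit (60.0 CPM) and Nos1 (63.7 CPM) were lower in SE replicate 2 than in any other library of 36 h or 120 h. Dlx2 (5.85 CPM), Dlx5 (6.48 CPM), Dlx6 (12.0 CPM), Sp8 (5.64 CPM) and Nxph1 (37.2 CPM) were higher in this library than in any other of those times. Gad2 had 217 CPM there, against 137 and 130 CPM in the other SE libraries and 139 to 160 CPM in controls. Slc32a1 had 91.7 CPM, against 56.8 and 50.5 CPM in the other SE libraries and 56.3 to 61.6 CPM in controls, and Dlx1, a transcription factor of interneurons, had 39.7 CPM, against 19.4 and 17.7 CPM in the other SE libraries and 16.5 to 21.2 CPM in controls. In the same library 9 genes of thalamus and habenula summed to 223 CPM, against 122 and 132 CPM in the other SE libraries and 107 to 117 CPM in controls. Of these genes Zic1 had 70.9 CPM, against 7.25 and 16.4 CPM in the other SE libraries and 6.74 to 23.3 CPM in controls. Prkcd had 88.7 CPM, against 29.6 and 31.0 CPM in the other SE libraries and 27.0 to 47.4 CPM in controls. The other 7 genes of the list were within the range of the other libraries of 36 h and 120 h. The part of tissue next to the hippocampus in these values was not tested.

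Slc6a13 gave the only call among the 26 genes in the comparison of SE effects between times. It had 16.9, 10.6 and 10.9 CPM after SE at 36 h, 3.98, 3.75 and 4.41 CPM after SE at 120 h and 13.4, 7.27 and 4.84 CPM in the controls that both times share. All SE libraries of 120 h were below all SE libraries of 36 h and below all controls, and the controls spread over most of the range. The log2 fold change was 0.60 ± 0.34 at 36 h (adjusted p = 0.713 by edgeR) and -1.07 ± 0.33 at 120 h (unadjusted p = 0.0105, adjusted p = 0.377 by edgeR). Without control replicate 1 the value at 120 h was -0.57 (adjusted p = 0.649).

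In 1 model of all 19 libraries the SE effect on Slc6a13 was lower at 120 h than at 36 h by a log2 difference of -1.67 ± 0.31 (adjusted p = 0.0465 by edgeR's quasi-likelihood test). This was 1 of 26 genes called, with 4 of 26 at an unadjusted p under 0.05, where 0.0804% of all genes were called and 4.21% had an unadjusted p under 0.05. Since the controls cancel, the SE mice of 120 h (n = 3) are in effect compared with those of 36 h (n = 3). The adjusted p was 0.117 when the score of choroid plexus genes was in the model and ranged from 0.0764 to 0.366 without any 1 of the 6 SE libraries, where the log2 difference ran from -1.78 to -1.42, and it was 0.0626 without control replicate 2. Summed genes of leptomeninges and fibroblasts were 213, 160 and 449 CPM after SE at 120 h and 531, 443 and 269 CPM after SE at 36 h. Igf2 alone held 45.65, 36.58 and 267 CPM of these sums at 120 h and 258, 213 and 57.55 CPM at 36 h. Its level was higher in the SE libraries with many choroid plexus counts than in those with few. Of the same list, Dcn, Col1a1, Slc22a6, Aldh1a2, Foxc1 and Fmod were lower in all SE libraries of 120 h than in all of 36 h. Slc6a13 had the same order, and the remaining genes of the list overlapped between the 2 times. The part of these genes in the difference was not tested.

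**Figure D5:**
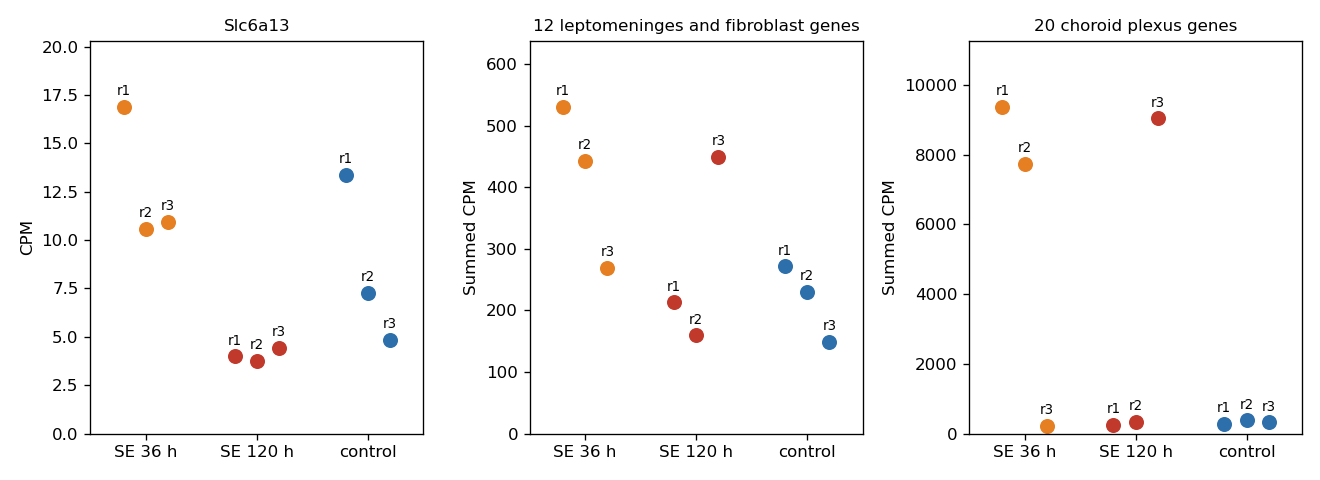
Slc6a13 (CPM), the sum of 12 genes of leptomeninges and fibroblasts and the sum of 20 genes of choroid plexus (both summed CPM) in each SE library of 36 h and 120 h and in their shared controls, with the replicate number at each point. Slc6a13 is at 3.75 to 4.41 CPM in the SE libraries of 120 h and at 10.6 to 16.9 CPM in those of 36 h. SE replicate 3 of 120 h has 9048 CPM of choroid plexus genes and 449 CPM of leptomeninges genes, of which Igf2 holds 267 CPM.

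Between the other times no difference in SE effect was called among the 26 genes. For 8 h against 1 h, edgeR's quasi-likelihood test called 0 of 26 (0.149% of all 17415 genes), with Gabrg3 alone at an unadjusted p under 0.05 (log2 difference -0.54 ± 0.24, adjusted p = 0.374). For 36 h against 8 h it called 0 of 26 (0.144% of all genes), with Lhx6 alone at an unadjusted p under 0.05 (0.54 ± 0.24, adjusted p = 0.327). The likelihood ratio test called 0 of 26 in both, where it called 0.735% and 1.14% of all genes in the same order.

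Other genes of the same pathway were described by counts over 3 lists. Of 25 other genes of GABA receptors and the inhibitory synapse, 22 or 23 were tested at each time and 0 were called by edgeR, with median log2 fold changes of -0.03, -0.11, -0.05 and -0.03 in order of time. At 8 h Gabarap, which binds gamma subunits, stood at -0.66 ± 0.24 on the log2 scale (adjusted p = 0.495 by edgeR). At 120 h Plcl1, which takes part in the traffic of GABA-A receptors, had 0.35 ± 0.09 (adjusted p = 0.324 by edgeR).

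Of 20 other genes of GABA synthesis, transport and chloride balance, all were tested and 0 were called at any time, with medians of 0.02, 0.08, 0.00 and 0.01 on the log2 scale in order of time. Slc38a2, a glutamine transporter, had the smallest p of this list at 8 h, with a log2 fold change of 1.07 ± 0.24 (adjusted p = 0.41 by edgeR). Slc6a12, a betaine and GABA transporter, had -1.43 ± 0.61 at 120 h (adjusted p = 0.505 by edgeR). Of 24 other interneuron genes 0 were called, with medians of 0.01, -0.13, 0.05 and -0.11 in order of time. Kcnc2 had the smallest p of this list at 120 h, with a log2 fold change of -0.29 ± 0.06 (adjusted p = 0.265 by edgeR). In order of time, 1, 3, 2 and 7 genes of the list had an unadjusted p under 0.05 (4.39%, 9.47%, 7.89% and 9.6% of all genes). Among them, Npy, a neuropeptide of interneurons that granule cells also make after seizures, stood at -0.90 ± 0.33 on the log2 scale at 8 h (adjusted p = 0.495 by edgeR) and 0.37 ± 0.11 at 36 h (adjusted p = 0.431 by edgeR).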

How the data were processed

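Polyadenylated RNA of the left hippocampus of 19 mice was sequenced from stranded libraries. The authors demultiplexed the reads with bcl2fastq, used BBDuk for quality trimming, HISAT2 2.1.0 for alignment to NCBIM37 and HTSeq for counting per gene, and they deposited whole-number raw counts without normalization. The methods name Ensembl release 67 for counting, and positions and exon lengths here come from release 65 of the same assembly, which named 33068 of 43629 identifiers. The small RNA counts of the series were not used here.

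Genes were kept by filterByExpr for the groups compared, TMM normalization was applied, and SE was tested against control on the libraries of each time by the quasi-likelihood test of edgeR 4.0.16 (R 4.3.3, two-sided), with Benjamini-Hochberg adjustment across every gene tested and 0.05 as the threshold. SE effects at different times were compared by contrasts in 1 model of 7 groups over all 19 libraries. CPM are TMM-normalized over the 19 libraries, and the standard error of a fold change is its size divided by the root of the F statistic. A choroid plexus score was computed as the average log2 CPM (prior count 1) over 20 genes. Replicates are separate mice. The steps were tested on simulated data, where all 3 tests made more false calls than the threshold allows at each time, the quasi-likelihood test the fewest.

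Fold changes are printed for members with an unadjusted p under 0.05, for those called by the quasi-likelihood test, the likelihood ratio test or DESeq2, and for the member with the smallest p of each of the 6 roles at each time, with at most 4 genes from each list of other genes. Further values are given as levels. The members and lists were chosen with earlier results of these data known. Alternatives were the likelihood ratio test, which the study used, DESeq2 1.42.0, RLE normalization, no filter, all libraries in 1 fit, a replicate block, the choroid plexus score, listed sex or batch as a covariate, and fits with 1 library omitted. The sex covariate took the listed sex, which the counts of 2 controls contradict.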

Additional observations from a re-analysis of the deposited data

Results flagged for a closer look

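The SE effect on Slc6a13 differed between 120 h and 36 h by a log2 difference of -1.67 ± 0.31 (standard error, adjusted p = 0.0465 by edgeR's quasi-likelihood test on the contrast itself), with 3 of 3 SE libraries of 120 h below 3 of 3 SE libraries of 36 h. The adjusted p over its alternatives ran from 3.76e-08 to 0.561. Genes of leptomeninges and fibroblasts summed to 160 to 449 CPM in the SE libraries of 120 h and to 269 to 531 CPM in those of 36 h. Of these sums Igf2 alone held 36.58 to 267 CPM at 120 h and 57.55 to 258 CPM at 36 h. Dcn, Col1a1, Slc22a6, Aldh1a2, Foxc1 and Fmod were lower in all SE libraries of 120 h than in all of 36 h, and the remaining genes overlapped. The part of these genes in the difference was not tested. No formal test for single libraries that stand apart was run, as no group has more than 3.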

How the results depend on the processing

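With 2 or 3 mice a group, small changes of single genes could pass unnoticed. The count of members called at 1 h stayed at 0 under every alternative run. At 8 h it was 1 without the filter (Slc12a2, where 1.41% of all genes were called), 4 with batch as a covariate (13.5% of all genes), which compares the same 4 libraries as leaving out control replicate 1, and 0 to 4 when each library was left out (13.4% of all genes without control replicate 1). At 36 h it was 0 to 1 when each library was left out, and at 120 h it was 1 by the likelihood ratio test, 1 by DESeq2 and 0 when each library was left out. For 36 h against 8 h it was 1 without the filter (Slc12a2, 2.73% of all genes) and 0 to 1 when each library was left out (Lhx6 without control replicate 1 of 8 h). For 120 h against 36 h it was 0 with the replicate block, 0 with the choroid plexus score, 0 to 1 when each library was left out, and 0 with only the SE libraries of few choroid plexus counts, an alternative chosen after seeing the data that leaves 1 SE library at 36 h, assumed to vary like the others. The cause of these changes was not tested.

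Replicate numbers did not pair the mice, since the deviations of same-numbered libraries correlated at 0.108, -0.044 and -0.088 at 36 h and at 0.208, -0.244 and -0.001 at 120 h. With the replicate block Slc6a13 for 120 h against 36 h was -1.65 on the log2 scale (adjusted p = 0.0982 by edgeR), and the block changed no other call.

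Among single genes, 433 of the alternative values kept direction and call. A further 12 kept direction and gained a call, and 10 kept direction and lost it. The other 15 changed sign, all of them at 1 h or 36 h in genes not called with all libraries. With the choroid plexus score the log2 fold change was -0.079 for Gabbr2 and 0.073 for Gphn at 1 h, and 0.11 for Gabrb2, -0.0013 for Gabrg1 and 0.14 for Slc12a5 at 36 h. With only the SE library of few choroid plexus counts at 36 h it was 0.13 for Gabrb2, -0.059 for Gabrg1 and 0.14 for Slc12a5. When each library was left out, it ran from -0.45 to 0.089 for Gabra5, -0.058 to 0.11 for Gabbr2 and -0.18 to 0.14 for Gphn at 1 h, and from -0.093 to 0.15 for Gabbr2 and -0.21 to 0.030 for Slc12a5 at 36 h.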
